A study of Saccharomyces cerevisiae with 30 samples.

Results

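Yeast makes several enzymes of nucleotide synthesis under transcription attenuation. RNA polymerase II can start upstream of such a gene, at sites that give a short unstable transcript, or nearer to the coding sequence, where it gives the mRNA, and nucleotide supply is known to shift the choice at IMD2, URA2 and URA8. The upstream transcripts are ended by the Nrd1-Nab3-Sen1 complex and destroyed by the nuclear exosome. Its catalytic subunits include the 3′ exonuclease Rrp44 (encoded by DIS3) and Rrp6. The 5′ exonuclease Rat1 acts in termination at the ends of genes. Here 6 genes of this kind were followed, given as a list of names, of 7126 features in the count-based tables and 6777 in the RPKM tables.

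IMD2, IMD3 and IMD4 encode IMP dehydrogenase, which takes the first step from IMP towards GTP. On the R64 assembly IMD2 (YHR216W) lies at chrVIII:554396-555967 on the plus strand, IMD3 (YLR432W) at chrXII:1002557-1004128 on the plus strand, and IMD4 (YML056C) at chrXIII:162194-164176 on the minus strand. The IMD4 gene has 2 exons, and the snoRNA gene SNR54 stands in its intron. URA2 (YJL130C, chrX:165723-172367, minus strand) encodes the enzyme that starts UMP synthesis, URA8 (YJR103W, chrX:620754-622490, plus strand) a CTP synthase, and ADE12 (YNL220W, chrXIV:234413-235714, plus strand) adenylosuccinate synthase, on the branch from IMP to AMP. The counted features are the annotated genes, so the short upstream transcripts were not measured as such.

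Whole cells grown to mid-log in YPD were sequenced after rRNA depletion. The auxin strains are BY4741 with the plant F-box protein OsTIR1 under the GPD1 promoter at the leu2 locus and Rpb3 tagged with 3xFLAG, either without a further tag (WT) or with RAT1, RRP44, LAS1 or RRP17 fused to 3xV5-IAA7, so that auxin leads to degradation of the tagged protein. Las1 is an endonuclease and Rrp17 a 5′ exonuclease of rRNA processing. The paper depleted Rat1 and Rrp44 as processing factors of large-subunit rRNA too, and reports that pre-rRNA had built up by 20 min of auxin. The roles of Rat1 and Rrp44 in rRNA processing and elsewhere were not told apart here. Each strain was mock-treated or given 100 µM auxin for 20 min, with 2 libraries per condition (A and B), and mock cells carried the same alleles as treated ones. Plain BY4741 received 0.1% DMSO or 15 µg/ml diazaborine (DZA), an inhibitor of ribosome assembly, for 15 or 45 min, with 2 libraries each. BY4741 with RPB3-3xFLAG received 1.5 mM diamide, a thiol oxidant, for 0 or 15 min, with 1 library each from another library protocol. In the RRP17-AID table the values of mock A and mock B were the same in all 7126 features, so they were counted as 1 library.

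The 27 distinct count-based libraries held 15014154 to 99585064 reads on features (median 31111173). The MATa genes STE2, MFA1, MFA2 and BAR1 read at least 978 normalized counts in every library, and the MATalpha genes STE3, MF(ALPHA)1 and MF(ALPHA)2 at most 185. Of the marker genes deleted in full or in part in BY4741, URA3 was at 0 in all 27, MET17 read at most 1.40, LEU2 0 to 308 and HIS3 555 to 2342. Depletion acts on protein, which RNA does not measure: in RAT1-AID the RAT1 RNA read 8117 and 8605 normalized counts in mock and 11839 and 10474.0 in auxin (adjusted p = 0.084), and in RRP44-AID the DIS3 RNA read 5117 and 5522 in mock and 6219 and 5817 in auxin (adjusted p = 0.16).

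The windows from 250 bases before to 50 bases after the start codon of IMD2, URA8 and IMD3 are shown because IMD2 and URA8 rose after Rrp44 depletion and IMD3, a close relative of IMD2, did not pass the test. They come from the RefSeq R64 assembly, in the direction of transcription, and capitals mark TCTT, the core of the sites Nab3 binds in RNA, and GTAA or GTAG, those of Nrd1, on the strand of the gene.
IMD2, chrVIII:554146-554445, plus strand: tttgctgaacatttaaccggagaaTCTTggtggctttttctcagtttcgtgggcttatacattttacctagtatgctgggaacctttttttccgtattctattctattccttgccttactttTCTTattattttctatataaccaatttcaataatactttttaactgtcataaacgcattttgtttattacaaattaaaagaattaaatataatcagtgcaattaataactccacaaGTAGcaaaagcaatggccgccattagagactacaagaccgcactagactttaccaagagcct
URA8, chrX:620504-620803, plus strand: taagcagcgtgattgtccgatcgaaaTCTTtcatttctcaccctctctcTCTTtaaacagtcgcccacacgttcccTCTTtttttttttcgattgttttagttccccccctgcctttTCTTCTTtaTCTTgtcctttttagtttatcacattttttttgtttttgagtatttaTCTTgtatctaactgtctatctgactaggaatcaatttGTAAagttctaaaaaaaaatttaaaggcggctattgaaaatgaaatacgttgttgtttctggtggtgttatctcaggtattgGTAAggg
IMD3, chrXII:1002307-1002606, plus strand: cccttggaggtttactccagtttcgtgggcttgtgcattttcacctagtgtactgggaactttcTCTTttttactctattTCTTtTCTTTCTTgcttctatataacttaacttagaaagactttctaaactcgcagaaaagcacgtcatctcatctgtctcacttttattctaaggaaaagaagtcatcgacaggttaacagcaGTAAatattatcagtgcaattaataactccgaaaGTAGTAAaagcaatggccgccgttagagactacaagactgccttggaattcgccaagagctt

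On the strand of the gene, TCTT occurred 2 times in the IMD2 window, 7 times at URA8 (2 of these overlapping) and 4 times at IMD3. IMD4 held 4, URA2 held 2 and ADE12 held 6. GTAA and GTAG together occurred 9 times at ADE12, 3 times at IMD3, 2 times at URA8, 1 time at IMD2 and 0 times at IMD4 and URA2. These are short motifs: of 6001 windows of protein-coding genes, 85.3% held TCTT on the strand of the gene and 99.4% on either strand. For GTAA these shares were 76.4% and 94.7%, and for GTAG 54.6% and 80.2%. On the other strand, TCTT was found 3 times at IMD2, 0 times at URA8 and 4 times at IMD3. TATAAA stood on the strand of the gene at IMD4, 204 bases before the start codon, and at ADE12, 107 bases before it, and 29.6% of windows held it on that strand. The letters are a description of the windows and were not tested against the responses.

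The genes differ in level. Per kilobase of exon, the mean of the control libraries had a median over the 7 tables of 20163 normalized counts for IMD3 and 18169 for IMD4. ADE12 (6117) and URA2 (5941) followed, then IMD2 (2187) and URA8 (1945). The tables were normalized separately, so the order was read within each. The control mean of IMD3 was above that of IMD4 in 7 of 7 tables, and in 4 of the 6 tables with more than 1 control library their libraries did not overlap. IMD4 lay above ADE12, and URA2 above IMD2, in 7 of 7 tables, without overlap in 6 of 6. ADE12 lay above URA2 in 3 of 7 tables, and of 6 tables it was above without overlap in 1 and below in 2. IMD2 lay above URA8 in 4 of 7, and of 6 tables it was above without overlap in 3 and below in 0. By the control means the genes within these pairs have no set order. Of 50-base stretches, 66.3% of those of IMD2, 83.4% of IMD3 and 94.5% of IMD4 occurred once in the genome. Levels were not corrected for this.

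**Figure D1:**
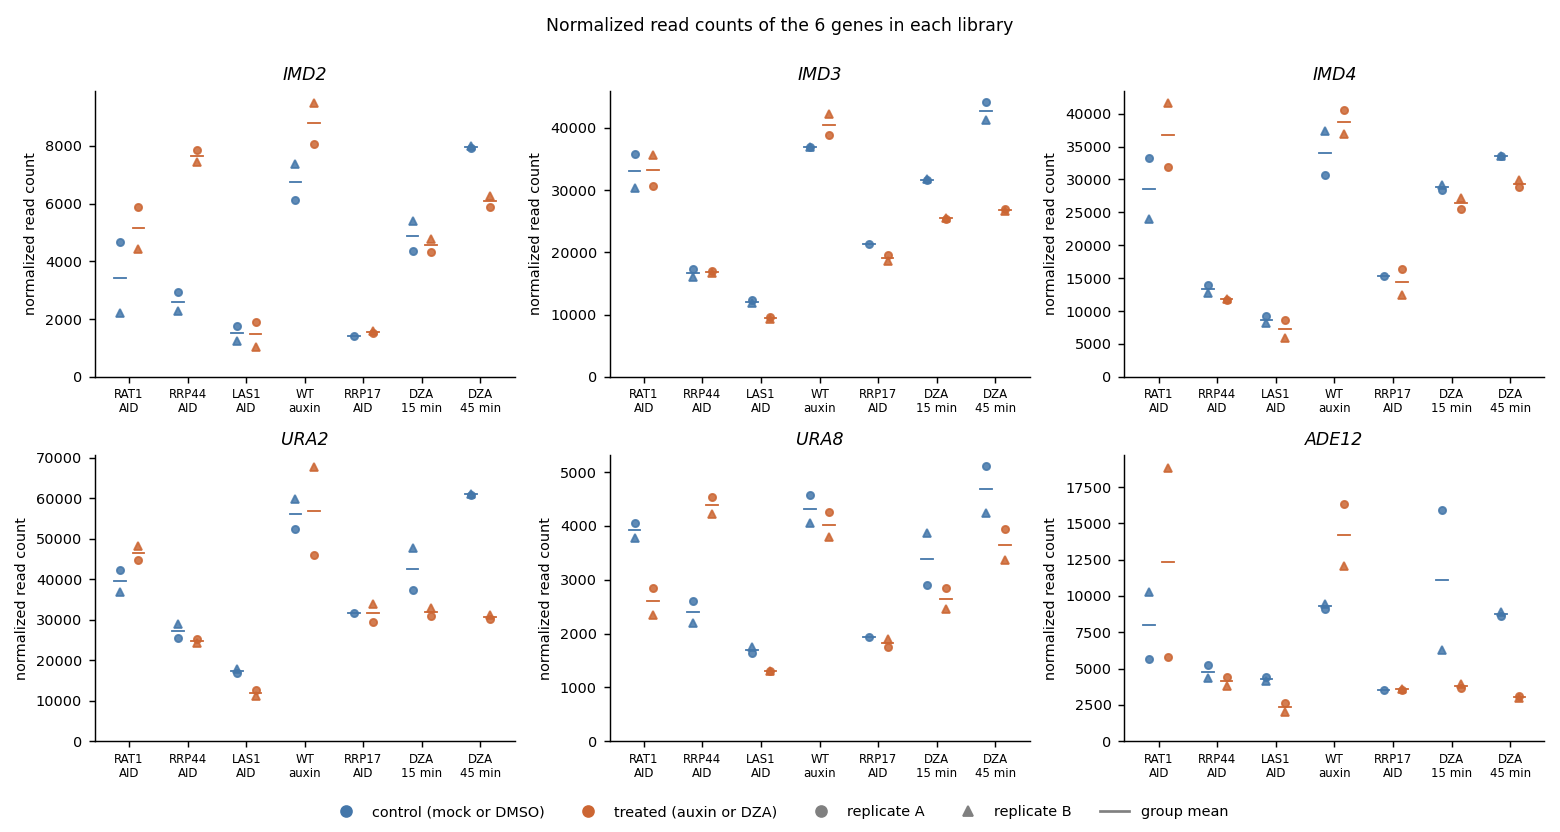
Normalized read counts (y axis, linear, from 0) of the 6 genes in each count-based library, by table (x axis), with control libraries in blue, treated ones in orange, circles for replicate A, triangles for replicate B and a line at each group mean. IMD2 and URA8 stand apart in RRP44-AID, where auxin libraries read 7865 and 7448 for IMD2 against 2928 and 2290.4 in mock, and ADE12 in RAT1-AID auxin reads 5789 in one replicate and 18839 in the other.

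Rrp44 depletion lowers a nuclease of the exosome, and counts on the annotated genes were compared between auxin and mock. IMD2 rose 2.95-fold and URA8 rose 1.84-fold, while IMD3, IMD4, URA2 and ADE12 did not pass the test. IMD2 read 2928 and 2290.4 normalized counts in mock and 7865 and 7448 in auxin, so both auxin libraries lay far above both mock libraries. The log2 fold change was 1.56 ± 0.12 (SE, n = 2 libraries per group, limma, adjusted p = 0.00043). URA8 read 2596 and 2193 in mock and 4547 and 4224 in auxin, again without overlap, a log2 fold change of 0.88 ± 0.10 (SE, limma, adjusted p = 0.0021). Thus 2 of 6 genes rose, where 15.1% of 6343 tested features rose, and 0 fell, where 10.2% of features fell. In bulk RNA, fewer cells that express a gene and less RNA per cell cannot be told apart. Where 1 library is left out, its group keeps a single library and the spread comes from the other group, so such values show which library a call rests on and do not stand as calls of their own. Both calls held without any one library and under every other setting tried.

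The other IMP dehydrogenase genes did not pass in this strain. IMD3 read 17405 and 16118 in mock and 16954 and 16635 in auxin, inside the mock range, with a log2 fold change of 0.00 ± 0.08 (SE, limma, adjusted p = 0.98). IMD4 read 13936 and 12748 in mock and 11693 and 11897 in auxin (log2 fold change -0.18 ± 0.08 SE, limma, adjusted p = 0.15). URA2 went from 25397 and 28977 to 25247 and 24176, and ADE12 from 5239 and 4316 to 4448 and 3802.5, with log2 fold changes of -0.13 ± 0.09 and -0.21 ± 0.12 (SE, limma, adjusted p = 0.33 and 0.25). Without mock replicate B, IMD4 (-0.24, adjusted p = 0.032) and ADE12 (-0.35, adjusted p = 0.011) passed as lower.

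Rat1 depletion gave another picture, with URA8 lower and IMD2 uncertain. URA8 read 4054 and 3781 in mock and 2853 and 2344 in auxin, below mock within both letters, and its log2 fold change was -0.60 ± 0.15 (SE, limma, adjusted p = 0.043). This call is near the threshold: the adjusted p rose to 0.22 without mock A, 0.13 without mock B and 0.081 without auxin B, and to 0.070 when libraries were centred on their medians. IMD2 read 4667 and 2209 in mock and 5889 and 4432 in auxin, higher in auxin within both letters although mock A lay above auxin B, with a log2 fold change of 0.67 ± 0.34 (SE, limma, adjusted p = 0.23). With the replicate letter as a block, IMD2 passed as higher (adjusted p = 0.0056), and its log2 fold change ran from 0.13 without mock B (adjusted p = 0.84) to 1.21 without mock A (adjusted p = 0.00335). Of the 6 genes 1 fell, where 6.02% of 6524 features fell, and 0 rose, where 10.7% rose.

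ADE12 differed between the RAT1-AID replicates. It read 5685 in mock A and 5789 in auxin A, but 10243 in mock B and 18839 in auxin B. The log2 fold change of 0.45 ± 0.53 (SE, limma, adjusted p = 0.61) thus joins flat values under letter A and a rise under letter B. Without auxin B the value was -0.40, and without auxin A it was 1.30. IMD3 (0.01 ± 0.17), IMD4 (0.37 ± 0.22) and URA2 (0.24 ± 0.16) had adjusted p of 0.98, 0.29 and 0.36 in limma. IMD4 likewise read 33240.1 and 23994 in mock and 31918 and 41624 in auxin, flat under letter A and higher under letter B. The letters are replicate labels, and the fit did not pair libraries by them.

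The difference between responses was tested as an interaction in limma, in 7 contrasts with adjustment over all features of each. The URA8 responses in RAT1-AID and RRP44-AID cells differed by -1.47 ± 0.19 on the log2 scale (SE, limma, adjusted p = 0.011), where 2.17% of 6305 features differed. The test concerns this difference and not the sign of either response, and the RAT1-AID fall was a call near the threshold. For IMD2 the same difference was -0.89 ± 0.44 (SE, limma, adjusted p = 0.34), which does not separate the strains. Against WT cells given auxin, the RRP44-AID response was larger by 1.18 ± 0.22 for IMD2 (SE, limma, adjusted p = 0.025) and by 0.98 ± 0.17 for URA8 (SE, limma, adjusted p = 0.023), and 5.08% of 6199 features differed. ADE12 differed there by -0.80 ± 0.23 (SE, limma, adjusted p = 0.099), and passed with the replicate block (adjusted p = 0.038). The RAT1-AID response of URA8 differed from that of WT by -0.50 ± 0.21 (SE, limma, adjusted p = 0.24), and none of the 6 passed there, where 5.46% of 6279 features did (1 of 6 at an unadjusted p under 0.05, and 0 by edgeR).

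**Figure D2:**
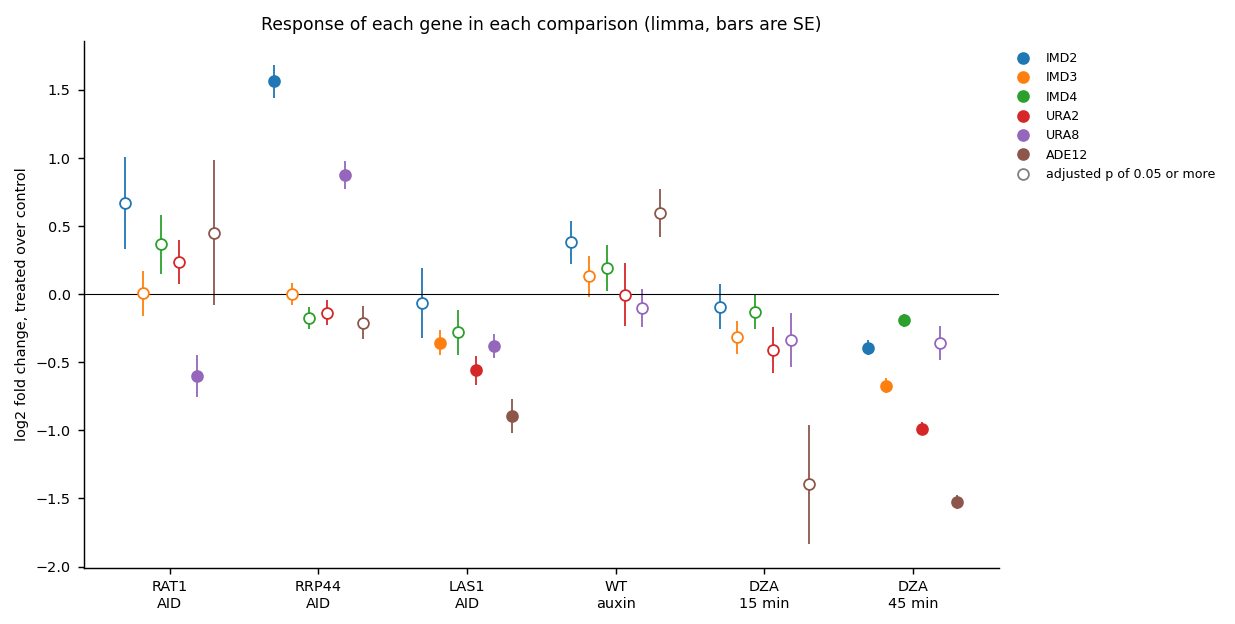
Log2 fold change of treated over control (y axis, limma on log2 of normalized count plus 1) with its SE for the 6 genes (colours) in the 6 tested comparisons (x axis); filled points have an adjusted p under 0.05. IMD2 at 1.56 and URA8 at 0.88 in RRP44-AID are the filled points above 0, and the other filled points, including URA8 at -0.60 in RAT1-AID and ADE12 at -1.53 after 45 min of DZA, lie below it.

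In WT cells auxin alone left all 6 genes without a call, and 0% of 6295 features rose or fell in limma (48 features at an unadjusted p under 0.05, 0 called by edgeR and 2 by DESeq2). ADE12 was the exception at the unadjusted threshold: it read 9118 and 9470.4 in mock and 16312 and 12066 in auxin, without overlap, with a log2 fold change of 0.59 ± 0.18 (SE, unadjusted p = 0.016, limma adjusted p = 1.0). IMD2 read 6114 and 7380 in mock and 8081.5 and 9472 in auxin, also without overlap (0.38 ± 0.16 SE, limma adjusted p = 1.0). The other 4 lay between -0.10 and 0.19. Of these, IMD3 also read without overlap, at 37005 and 36947 in mock and 38917 and 42164 in auxin. The share of all features without overlap is not given here.

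In LAS1-AID cells 4 of the 6 genes fell. ADE12 read 4433 and 4135 in mock and 2632 and 2014 in auxin, a log2 fold change of -0.89 ± 0.12 (SE, limma, adjusted p = 0.0011), and it stayed called without any one library. URA2 read 16917 and 17801 in mock and 12500.1 and 11100.1 in auxin (-0.56 ± 0.11 SE, limma, adjusted p = 0.0048). URA8 and IMD3 fell too, by 0.38 and 0.36 on the log2 scale (limma, adjusted p = 0.010 and 0.018). The 4 stand where 17.2% of 6103 features fell, and 0 higher, where 16.5% rose.

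The smaller LAS1-AID falls rest on few libraries. Without mock B, URA2 (adjusted p = 0.051), URA8 (0.10) and IMD3 (0.13) were lost, and without mock A IMD3 was lost as well (0.21). IMD2 could not be placed: it read 1762 and 1241 in mock and 1912 and 1044 in auxin, and its log2 fold change was -0.50 without auxin A and 0.37 without auxin B, each past the threshold. IMD4 read 9190.1 and 8211 in mock and 8693 and 5886 in auxin (-0.28 ± 0.16 SE, limma, adjusted p = 0.22) and passed as lower with the replicate letter as a block (adjusted p = 0.00335). Without auxin A it was -0.56, and without auxin B 0.00.

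By the interaction test, the ADE12 response in LAS1-AID differed from that in WT by -1.49 ± 0.24 (SE, limma, adjusted p = 0.010; 7.54% of 6076 features differed), which combines a fall in the tagged strain with a higher value after auxin in WT. URA8 separated RRP44-AID from LAS1-AID by 1.26 ± 0.13 (SE, limma, adjusted p = 0.0084; 0.805% of 6090 features differed). With the replicate block IMD2 (1.63, adjusted p = 0.0012) and ADE12 (0.69, adjusted p = 0.022) passed in that contrast as well. Between RAT1-AID and LAS1-AID 0 of 6 genes passed, where 2.44% of 6102 features did. The nearest was URA2, at 0.80 ± 0.17 (SE, limma, adjusted p = 0.056), the 1 gene of 6 with an unadjusted p under 0.05, and edgeR called 0.

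RRP17-AID had a single mock library, so the log2 differences of the auxin libraries from it carry no test. According to the paper, tagged Rrp17 had partly lost its function, and pre-rRNA built up without auxin. The mock library therefore does not stand for unaffected cells. IMD2 read 1423 in mock and 1507 and 1578 in auxin, and IMD3 21359 in mock and 19529 and 18691 in auxin. The mean log2 differences of the 6 genes ran from -0.16 for IMD3 to 0.12 for IMD2. None of the 6 reached 2-fold in both auxin libraries, where 0.524% of 6103 features were higher and 0.229% lower by that measure. IMD4 split between the libraries, at 16317 and 12389.6 around a mock value of 15305.

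DZA lowered most of the genes by 45 min. ADE12 read 8616 and 8876 in DMSO and 3091 and 2985 in DZA, a 2.88-fold fall seen under both letters (log2 fold change -1.53 ± 0.05 SE, limma, adjusted p = 0.00026). URA2 read 60864 and 61018 in DMSO and 30239 and 31227 in DZA (-0.99 ± 0.05 SE, limma, adjusted p = 0.00055). IMD3 fell from 44159 and 41199 to 26938 and 26611 (-0.67 ± 0.06 SE, limma, adjusted p = 0.0017). These were the 3 steepest falls of the set.

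IMD2 fell less after 45 min, from 7939 and 8005 to 5883 and 6269 (-0.39 ± 0.06 SE, limma, adjusted p = 0.0066). IMD4 fell from 33553 and 33542 to 28805 and 29947 (-0.19 ± 0.05 SE, limma, adjusted p = 0.033), a call lost without any one of the 4 libraries (adjusted p = 0.097 to 0.18), with edgeR (0.059) and with median-centring (0.082). URA8 read 5120 and 4245 in DMSO and 3935 and 3361 in DZA, which did not pass (-0.36 ± 0.13 SE, limma, adjusted p = 0.079) but did with the replicate block (adjusted p = 8.58e-06), with DESeq2 (0.029), without DMSO B (0.0066) and without DZA A (0.048). The median of the 6 was -0.53, beside -0.01 for all features. In all, 5 of 6 genes fell, where 23.7% of 6476 features fell, and 0 rose, where 23.7% rose.

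After 15 min none of the 6 was called, where 3.8% of 6311 features rose and 1.13% fell (2 of 6 at an unadjusted p under 0.05, 0 by edgeR and 1 by DESeq2). ADE12 read 15925 and 6308 in DMSO and 3687 and 3940.2 in DZA. Both DZA libraries lay below both DMSO libraries, and DMSO A lay far above DMSO B; the log2 fold change of -1.39 ± 0.44 (SE) had an adjusted p of 0.13 in limma. DESeq2 called it (adjusted p = 0.0017). It was -0.73 without DMSO A and -2.06 without DMSO B. With the spread then taken from the DZA pair alone, features called went from 311 to 2587 and 2827, and ADE12 passed in both (adjusted p = 0.000928 and 3.47e-06). Without DMSO A, IMD3 (-0.32), URA2 (-0.59) and URA8 (-0.55) also passed (adjusted p = 0.046, 0.0042 and 0.0080), and without DMSO B, IMD3 did (-0.31, adjusted p = 0.049). Between 45 and 15 min 0 of the 6 responses differed, where 3.64% of 6299 features did (2 of 6 at an unadjusted p under 0.05, 0 by edgeR); the largest difference was -0.58 ± 0.17 for URA2 (SE, limma, adjusted p = 0.13).

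Diamide divided the genes by RPKM, read counts scaled to feature length and library size, with 1 library per time and therefore no test. URA8 went from 20.7 to 38.4 RPKM, a log2 change of 0.89 (95% exact interval for counting error only, 0.69 to 1.10), and IMD2 from 23.1 to 25.5 (0.14, -0.07 to 0.36). The other 4 went down: ADE12 from 114 to 50.6 RPKM (-1.17), URA2 from 169 to 76.9 (-1.13), IMD4 from 346 to 173 (-0.998) and IMD3 from 183 to 105 (-0.81). The median of the 6 was -0.90, beside -0.08 over 5760 features. At 2-fold or more, 2 of 6 were lower (ADE12 and URA2), where 9.03% of features were, and 0 were higher, where 8.37% were.

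Some IMD2 reads cannot be assigned with certainty. IMD1, a near copy of IMD2 that is held to be a pseudogene, is annotated as YAR073W and YAR075W, and of 50-base stretches of IMD2 66.3% occurred once in the genome and 22.7% also lay in YAR073W, against 83.4% and 5.25% for IMD3. Every such stretch of URA2, URA8 and ADE12 occurred once. YAR073W read 39.4 and 31.7 normalized counts in RRP44-AID mock and 193 and 139.8 in auxin (limma, adjusted p = 0.0016), and in RAT1-AID 3.40 and 12.7 in mock and 88.6 and 104 in auxin (limma, adjusted p = 0.0085). It also rose after 15 and 45 min of DZA (limma, adjusted p = 0.031 and 0.019), where IMD2 did not. YAR075W reached at most 25.3 normalized counts in any library and rose in RRP44-AID (limma, adjusted p = 0.024). The size of the IMD1 values is small beside those of IMD2 in every library, and their part in the IMD2 count was not tested.

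SNR54 (chrXIII:163535-163620), a box C/D snoRNA that guides rRNA methylation and is cut out of the IMD4 intron, was added after its values were seen. It read 250.4 and 262 normalized counts in RRP44-AID mock and 698 and 719 in auxin (log2 fold change 1.47 ± 0.11 SE, limma, adjusted p = 0.00038), and 395 and 316 in RAT1-AID mock and 985 and 909 in auxin (1.42 ± 0.20 SE, limma, adjusted p = 0.0054). IMD4 itself passed in neither strain. SNR54 also rose after 15 and 45 min of DZA (1.86 and 0.64, limma, adjusted p = 0.045 and 0.011) and had adjusted p of 0.58 in LAS1-AID and 1.0 in WT. Spliced intron ends are trimmed by exonucleases during snoRNA maturation, and whether the rise lies in the mature RNA or in precursors cannot be told from a count per feature.

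**Figure D3:**
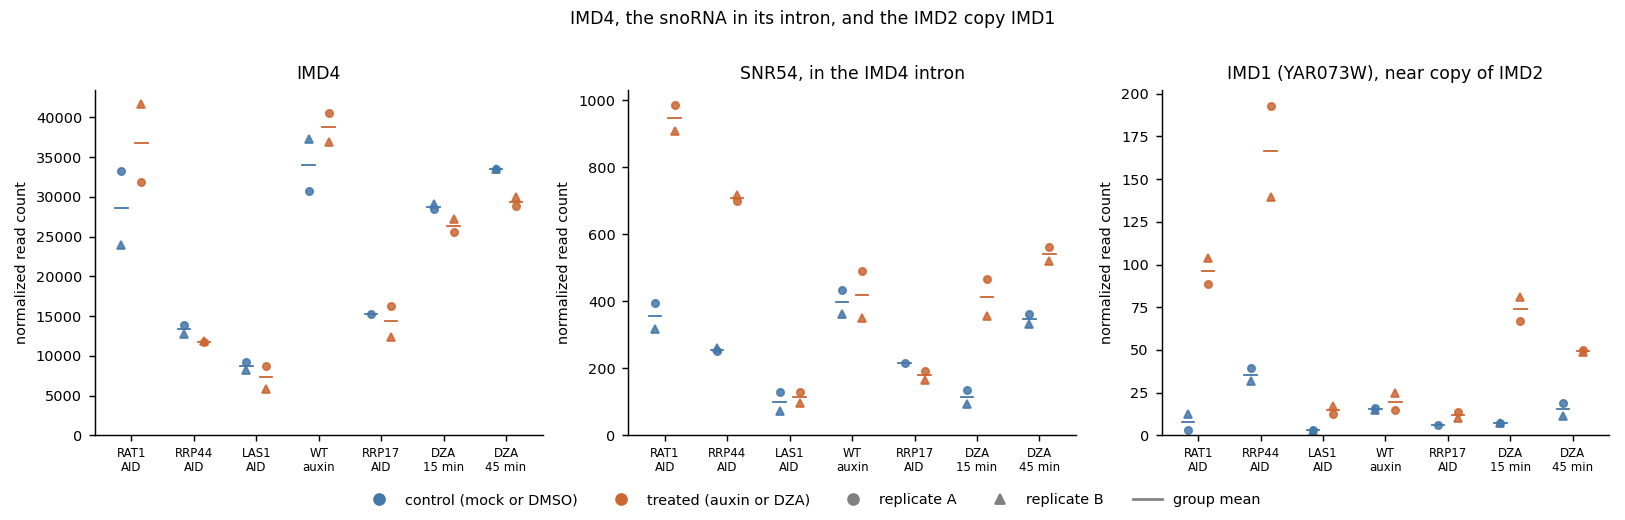
Normalized read counts (y axes, linear, from 0) of IMD4, of SNR54 in its intron, and of the IMD2 copy IMD1 (YAR073W), by table (x axis), with control libraries in blue, treated ones in orange, circles for replicate A and triangles for replicate B. In RAT1-AID SNR54 reads 985 and 909 in auxin against 395 and 316 in mock, while the IMD4 groups overlap.

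Of the genes beside the 6, none passed in RAT1-AID and 1 passed in RRP44-AID. In RRP44-AID, PHO12, upstream of IMD2 on the same strand, read 77.5 and 68.4 in mock and 119 and 112 in auxin (log2 fold change 0.65 ± 0.18 SE, limma, adjusted p = 0.042). YHR218W, on the other side of IMD2, read 0 in every count-based library. Whether reads can be placed on it uniquely was not examined. SOD1, which ends 59 bases from URA8 on the opposite strand, read 14772 and 13950.1 in mock and 12166 and 11976 in auxin (-0.25 ± 0.08 SE, limma, adjusted p = 0.054). SOD1 fell after 45 min of DZA (-0.50 ± 0.10 SE, limma, adjusted p = 0.016), as did TRK1 beside URA2 (-0.33 ± 0.05 SE, limma, adjusted p = 0.0072). CNA1, downstream of IMD3, rose in LAS1-AID (0.47 ± 0.09 SE, limma, adjusted p = 0.0066), where IMD3 fell. The library kit keeps strand, but the strand setting of the counting is not given in the sources used here.

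The counts for the rest of nucleotide synthesis stand beside these shares of all features: 10.7% rose and 6.02% fell in RAT1-AID, 15.1% and 10.2% in RRP44-AID, 16.5% and 17.2% in LAS1-AID, 3.8% and 1.13% after 15 min of DZA, and 23.7% and 23.7% after 45 min. Of 11 purine synthesis genes 0 passed in RAT1-AID and 1 fell in RRP44-AID, with list medians of 0.20 and -0.26 beside -0.01 and -0.01 for all features. That gene was ADE2, which makes the carboxylation step: it read 3097 and 2788 in mock and 2146 and 2092 in auxin (-0.47 ± 0.09 SE, limma, adjusted p = 0.0098). In LAS1-AID 10 of 11 fell (median -0.58), and after 45 min of DZA 9 of 11 fell (median -0.66). After 15 min of DZA 1 of 11 did (median -0.73), and in WT 0 of 11.

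Of 7 pyrimidine synthesis genes, URA10, a minor orotate phosphoribosyltransferase, rose in both strains. It read 355 and 371 in RAT1-AID mock and 803 and 911 in auxin (1.23 ± 0.19 SE, limma, adjusted p = 0.0072), and 198 and 246 in RRP44-AID mock and 397 and 448 in auxin (0.93 ± 0.15 SE, limma, adjusted p = 0.0067). URA4, dihydroorotase, fell in both, by 0.48 and 0.60 on the log2 scale (limma, adjusted p = 0.045 and 0.0073), and URA1, dihydroorotate dehydrogenase, fell in RRP44-AID by 0.36 (limma, adjusted p = 0.018). In LAS1-AID 1 rose, again URA10 (1.44, limma, adjusted p = 0.00015), and 3 fell. Among these were URA4 (-0.84) and URA1 (-0.55; limma, adjusted p = 0.00035 and 0.0036). After 45 min of DZA 6 fell.

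The PRPP synthetase genes, which supply the ribose phosphate of both routes, had 3 of 5 lower in RRP44-AID, led by PRS2 (-0.47 ± 0.10 SE) and PRS1 (-0.32 ± 0.07 SE; limma, adjusted p = 0.015 and 0.020), 0 of 5 called in RAT1-AID and 5 of 5 lower in LAS1-AID. Of 16 salvage and uptake genes 2 fell in RAT1-AID, the uridine permease gene FUI1 (-1.35 ± 0.19 SE) and the adenine phosphoribosyltransferase gene APT1 (-0.71 ± 0.16 SE; limma, adjusted p = 0.0051 and 0.026). In RRP44-AID 7 of 16 fell, led by HPT1 (-0.70 ± 0.08 SE), which salvages hypoxanthine and guanine, and APT1 (-0.67 ± 0.09 SE). The guanine deaminase gene GUD1 rose there (0.46 ± 0.11 SE). Their limma adjusted p were 0.0015, 0.0037 and 0.028. In LAS1-AID 11 of 16 fell, among them FUI1 (-2.11), HPT1 (-1.41) and APT1 (-0.91), with limma adjusted p of 6.84e-05, 1.94e-05 and 0.0049. After 45 min of DZA 14 of 16 fell and 1 rose. RNR3, the damage-inducible large subunit of ribonucleotide reductase, rose in both, from 558 and 362 to 1313 and 1087 in RAT1-AID and from 165 and 159 to 347 and 324 in RRP44-AID (limma, adjusted p = 0.012 and 0.0026), and also in LAS1-AID (0.63) and after 45 min of DZA (1.17; limma, adjusted p = 0.030 and 0.0058). Among the regulators BAS1, PHO2 and PPR1, only PPR1, an activator of some URA genes, passed in RRP44-AID (0.35 ± 0.09 SE, limma, adjusted p = 0.033). In RAT1-AID 0 of 3 passed.

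**Figure D4:**
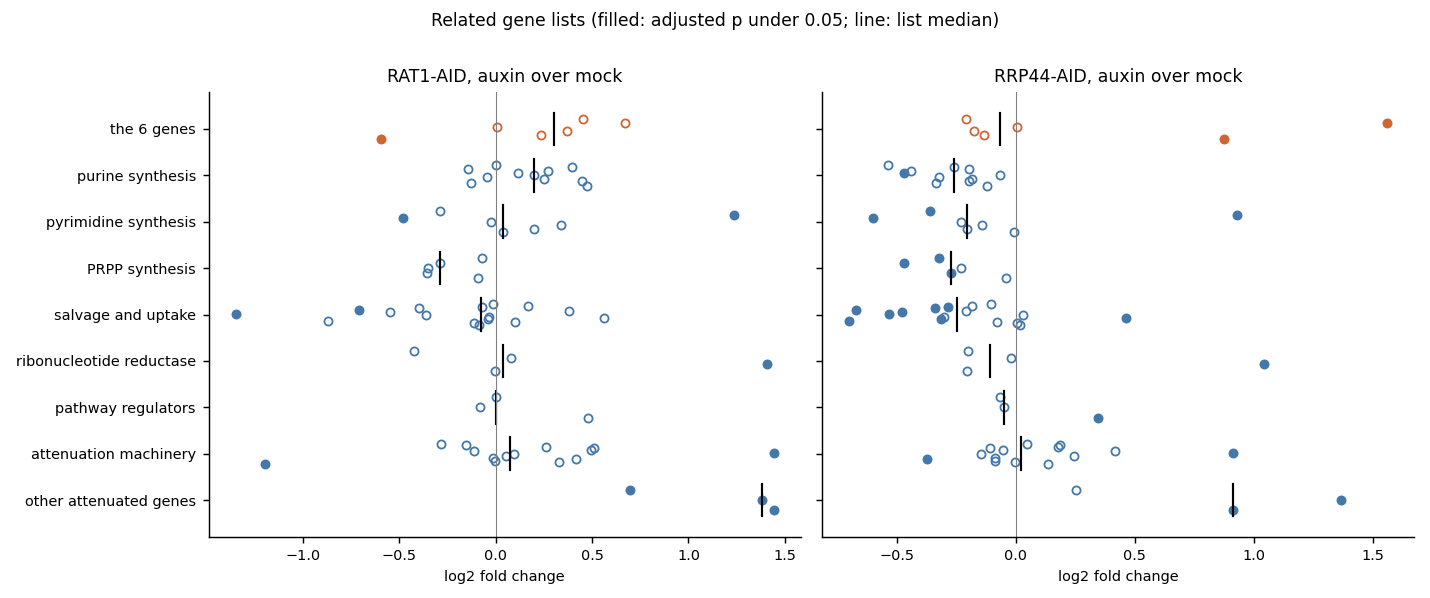
Log2 fold change of auxin over mock (x axes) in RAT1-AID and RRP44-AID for the 6 genes (orange) and for 8 lists of related genes (blue), one point per gene, filled where the adjusted p is under 0.05, with a line at the list median. In RRP44-AID IMD2 at 1.56 is the highest point shown, and the purine synthesis list has its median at -0.26.

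Other genes known for attenuation were NRD1, HRP1 and FKS2, and they were not tested against the 6. NRD1, which limits its own transcript through the sites its protein binds, read 5899.7 and 6119 in RAT1-AID mock and 20427 and 13053 in auxin (1.44 ± 0.22 SE, limma, adjusted p = 0.0065), and 8300.4 and 11592 in RRP44-AID mock and 17232 and 19783 in auxin (0.91 ± 0.16 SE, limma, adjusted p = 0.0083). HRP1, a cleavage factor that is also attenuated, read 20789 and 18664 in RAT1-AID mock and 57277 and 46159.7 in auxin (1.38 ± 0.17 SE, limma, adjusted p = 0.0030), and rose by 1.37 ± 0.08 in RRP44-AID (SE, limma, adjusted p = 0.00020). Both also rose in LAS1-AID (1.61 and 1.75) and after 15 min (1.70 and 1.65) and 45 min (0.63 and 0.96) of DZA, comparisons in which none of the 6 genes rose. FKS2, a glucan synthase gene named after its values were seen, rose in RAT1-AID (0.70 ± 0.13 SE, limma, adjusted p = 0.013) and had an adjusted p of 0.14 in RRP44-AID.

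Of 14 genes of the attenuation and exosome machinery, NRD1 included, 1 rose and 1 fell in each of RAT1-AID and RRP44-AID. In RAT1-AID the fall was in SSU72, a phosphatase of the polymerase tail, from 1320 and 1606 to 542 and 741 (-1.20 ± 0.22 SE, limma, adjusted p = 0.013). In RRP44-AID it was in RAT1, from 7534 and 7735 to 6060.3 and 5725 (-0.37 ± 0.08 SE, limma, adjusted p = 0.014). RAT1 also fell in LAS1-AID (-0.36 ± 0.08 SE, limma, adjusted p = 0.0099). The list medians in RAT1-AID and RRP44-AID, 0.07 and 0.02, lay near the -0.01 of all features.

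Over the 27 libraries, as differences from the control mean of the same table, the features most like IMD2 among 6019 with a mean of at least 10 in every table were BIO3 (Pearson r = 0.83), EMP65 (0.82), PCT1 (0.81), LCL3 (0.78) and RGT1 (0.78). Their log2 fold changes in RRP44-AID, which the choice by likeness to IMD2 uses, were 0.80, 1.26, 0.68, 0.51 and 0.64. Of the other genes of the set, URA8 was nearest to IMD2 (r = 0.56) and ADE12 farthest (0.22). IMD3 ran most closely with URA2 (r = 0.88) and ADE12 (0.80), and URA8 with IMD4 least (-0.23). These values describe libraries that share strains, days and control means, and carry no test.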

How the data were processed

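RNA of 30 samples in 16 groups was analysed. The authors trimmed reads with Cutadapt, aligned them with TopHat 2.1.0 and counted them on Ensembl release 91 features with HTSeq. Auxin and DZA tables, as the authors deposited them, hold a signal: HTSeq counts scaled by the DESeq2 size factor of each library. Log2 fold changes and p-values in those tables come from fits by the authors and were not used. For diamide the authors deposited RPKM. Values were whole multiples of a step for 100% of values in every column (within 0.01 reads), so reads were recovered for the count tests. The step of mock B in RRP44-AID lies close to 1.

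Tests used limma 3.58.1 in R 4.3.3 (trend, two-sided, treatment only, each table alone) on log2(normalized count + 1) over features with a mean of at least 10, with Benjamini-Hochberg adjustment over all features and a threshold of 0.05. This scale understates changes of low features. In simulated tables it recovered 95.3% of 2-fold and 100% of 4-fold changed genes for RRP44-AID (6342 genes tested) and 91.9% and 100% for RAT1-AID (6514 genes), at a chosen dispersion of 0.01, and 3.5% and 2.58% of calls were false. Every simulated gene had the same dispersion. The shares recovered therefore do not hold for genes whose libraries spread more, such as IMD2 and ADE12 in RAT1-AID (SE 0.34 and 0.53). Diamide used a pseudocount of 0.1 RPKM and a mean of at least 1 RPKM. Alternatives were pseudocounts, filters, median-centring, TMM, no trend, a replicate block, edgeR 4.0.16 and DESeq2 1.42.0 on reads, and leaving out libraries. The fits had no block, and the block on replicate letter was an alternative. Per the labels replicates were grown on separate days, but whether libraries of 1 letter share a day is not given in the sources used here. Deviations of same-letter libraries correlated at 0.246 for RRP44-AID, 0.107 for RAT1-AID, 0.449 for WT, 0.184 for LAS1-AID, -0.0835 for DZA 15 min and 0.577 for DZA 45 min.

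The 6 genes and the gene lists were chosen with earlier results of these data known. Named besides the 6 are the IMD1 features, flanking genes, tagged genes, the 2 largest called rises and falls of each list in RAT1-AID and RRP44-AID, and the 5 features most like IMD2. Further list genes are given as counts. Gene symbols matched 6048 of 7126 features.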

Additional observations from a re-analysis of the deposited data

Results flagged for a closer look

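The responses of 5 pairings of gene and strain differed by the interaction test in limma. IMD2 responded more in RRP44-AID than in WT by 1.18 and URA8 by 0.98 on the log2 scale. ADE12 was lower after auxin in LAS1-AID and read higher, without a call, in WT, a difference of -1.49. URA8 differed by -1.47 between RAT1-AID and RRP44-AID and by 1.26 between RRP44-AID and LAS1-AID. No other of the 6 genes passed in the 7 contrasts.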

How the results depend on the processing

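With 2 libraries per group, calls near the threshold moved. In RAT1-AID the 1 member called fell to 0 with a mean of at least 100, median-centring or no trend, and was 2 with the replicate block; features called, 1091, became 704 with a mean of at least 100 and 1696 with the block. The replicate block also gave 3101 features in LAS1-AID (2058 without it), 4831 at 45 min of DZA (3069), 8 in WT (0), and in the interactions 541 against 343 for RAT1-AID minus WT, 576 against 315 for RRP44-AID minus WT, 1001 against 458 for LAS1-AID minus WT, 164 against 49 for RRP44-AID minus LAS1-AID (3 members against 1) and 0 against 229 for DZA 45 minus 15 min. At 15 min of DZA, 311 features became 158 with a mean of at least 100 and 946 with DESeq2, which called 1 member against 0, and DESeq2 called 2 features in WT. Among the 6 genes the block changed no call beyond those given beside the results. The causes were not tested.

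Leaving out 1 library gave members called from 0 to 1 in RAT1-AID, 2 to 4 in RRP44-AID, 1 to 6 in LAS1-AID, 0 to 0 in WT, 0 to 4 at 15 min and 4 to 5 at 45 min of DZA. Features called ran from 712 to 1108, 658 to 2906, 1207 to 3012, 0 to 24, 0 to 2827 and 2176 to 2815 in the same order. Values that changed sign when 1 library was left out ran from -0.109 to 0.126 for IMD3 and -0.399 to 1.30 for ADE12 in RAT1-AID, -0.0516 to 0.0592 for IMD3 in RRP44-AID, -0.502 to 0.370 for IMD2 and -0.561 to 0.00102 for IMD4 in LAS1-AID, -0.281 to 0.275 for URA2 in WT, -0.251 to 0.0635 for IMD2 at 15 min of DZA and, in RRP17-AID, -0.305 to 0.0923 for IMD4 and -0.0996 to 0.105 for URA2. The RRP17-AID median of the 6 genes ran from -0.0462 to 0.00409.

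With all libraries kept, signs turned only at values near 0 without a call: IMD2 in LAS1-AID (0.00829 with edgeR), URA2 in WT (0.0189 with median-centring, 0.0198 with edgeR, 0.0226 with DESeq2), and, with edgeR, the differences of ADE12 for RAT1-AID minus WT (0.0382) and of URA8 (0.0118) and ADE12 (0.0436) for DZA 45 minus 15 min. The diamide median moved from -0.90 to -0.82 with median-centring. The 2 libraries per group and the single diamide libraries limit precision.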
